A study of Mus musculus with 6 samples.

Results

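The 10 genes described here, Muc1, Muc4, Muc16, Tspan1, Aoc1, Dmbt1, Sftpd, Lcn2, Wfdc3 and Plac8, encode proteins of mucosal fluids and of the luminal face of epithelia, apart from Plac8, whose small cysteine-rich product acts inside cells. They were taken by gene name or older name from the 27670 genes of a whole mouse genome array, on which they have 19 of 41174 probes. Aoc1 is printed there under its older name Abp1, and Muc16 under a clone name. Several of them were chosen because het and WT mice differed strongly, or in opposite ways, in P5 and in MEC. Those differences are therefore described here and not tested.

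RNA came from the mammary glands of virgin C57/B6 mice, heterozygous for a knockout of ΔNp63 (het) or wild type (WT). ΔNp63 is the form of the transcription factor p63 that lacks the first transactivation domain and is made by basal epithelial cells. In all, 3 cell preparations were profiled for each genotype. P4 (CD24+CD29hi) was sorted to enrich for mammary stem cells, P5 (CD24+CD29lo) was sorted to enrich for luminal progenitors, and MEC are total mammary epithelial cells with no sort. Each of the 6 groups, het P4, WT P4, het P5, WT P5, het MEC and WT MEC, was measured on 1 array. The labels give neither the number of mice behind an array nor their age, and they do not say which part of the gene the knockout removes.

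Mucosal epithelia cover themselves with a layer of fluid and glycoprotein that lubricates, traps microbes and keeps proteases in check. Transmembrane mucins stand on the apical membrane, and secreted lectins, scavenger receptors, siderophore-binding proteins and antiproteases fill the fluid. In the mammary gland the luminal cells, which line the duct and make milk, carry this surface, while the basal cells lie beneath them and do not reach the lumen.

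Every value is a log2 ratio of the Cy5 signal of the sample over the Cy3 signal of one reference RNA pooled from 11 mouse cell lines, so 1 unit is a 2-fold difference. Between 72.1% and 87.7% of the spots of an array stood well above background in Cy5. The WT and het arrays of one population correlated, across genes that are not independent replicates, with r of 0.914 to 0.926. Sorting was visible in the marker genes. All 12 basal and myoepithelial markers were higher in P4 than in P5, led by Cnn1 (a difference of 7.08), while 8 of 10 general luminal markers, 9 of 12 hormone-sensing luminal markers and 6 of 11 luminal progenitor markers were lower in P4, led by Cldn7 (-3.71), Areg (-4.37) and Aldh1a3 (-4.76), and 2 luminal progenitor markers were higher in P4. The probe for Trp63, the gene that encodes p63, read 5.49 in het P4 against 5.99 in WT P4, 0.89 in het P5 against 0.54 in WT P5, and 2.67 in het MEC against 3.71 in WT MEC. Which p63 isoforms that probe reads is not given in the sources used here. Position on the slide followed genotype: het samples always came after their WT partner, and position therefore cannot be told apart from genotype. The sorted samples shared 1 slide and both MEC samples another, so a difference from MEC cannot be told apart from a difference between slides.

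The probes differ in what they read, and several results turn on it. The first 30 of the 60 bases of each probe follow, with the positions on the mm7 build that the array files give; whether a probe lies in a coding exon or a UTR on that build is not given in the sources used here. The first are probes with large differences, from genes whose probes, where there were several, moved the same way between P4 and P5. The brighter probes of Muc16 and Wfdc3, which also showed large differences, come in the next group.
Aoc1, chr6:48869166-48869225 on the plus strand: ttgtctcacctcaacgatgggcaggagtaa
Sftpd, chr14:38598705-38598764 on the minus strand: aggacaatatttggccaggagtttaaccag
Dmbt1, chr7:127475099-127475158 on the plus strand: aaatgcttagccaagaacaatgagatggca
Plac8, chr5:99768632-99768691 on the minus strand: atgggatggatccatttaattagagaacgg
Tspan1, brighter probe, chr4:115539083-115539142 on the minus strand: aaggcacttacagcctgggcattttctaac
Tspan1, dimmer probe, chr4:115539281-115539340 on the minus strand: atgaaatgtcatttgggctggaatggattt
The next are the probes of genes whose probes disagreed.
Muc1, brighter probe, chr3:89357452-89357511 on the plus strand: ctatagcacagtaccattttctaccttctc
Muc1, dimmer probe, chr3:89357590-89357747 on the plus strand: ctaccaagaactgaagaggaacatttctgg
Muc4, brightest probe, chr16:32429715-32429774 on the plus strand: tccttcagcctcctcacgtgaccaaattca
Muc4, probe farthest downstream, chr16:32456834-32456889 on the plus strand: tggatgtatctaactggctttacatttacc
Muc16, brighter probe, chr9:18360158-18360217 on the minus strand: cgtcatcgtctagcttattatttgtctcac
Muc16, dimmer probe, chr9:18424054-18424113 on the minus strand: gccacagaagttgatgtcatctgtaacttc
Wfdc3, brighter probe, chr2:164472012-164472071 on the minus strand: cttgtgacactccctggagtatcaggcctt
Wfdc3, dimmer probe, chr2:164484758-164484817 on the minus strand: agaggagacatgaaagaccgagtcatcgca

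Where a gene has several probes, its value below is that of the probe with the highest mean Cy5 level, and the other probes are given beside it. Each of the 10 probes so chosen stood well above background in Cy5 on all 6 arrays.

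Tspan1, Dmbt1 and Plac8 were lower in P4 than in P5 in both genotypes, and 4 more genes, Aoc1, Sftpd, Muc16 and Wfdc3, had lower values in P4 that did not pass the test across all arrays. Tspan1, a tetraspanin of the apical membrane of secretory epithelia, read 2.27 in het P4 and 2.22 in WT P4, against 7.49 in het P5 and 7.58 in WT P5. The P4 values lie far below both P5 values, and the genotypes differ by under 0.1 in each. Its difference was -5.29 ± 0.48 (SE), with a Benjamini-Hochberg adjusted p of 0.005 in the limma fit of population and genotype over all 6 arrays. The dimmer probe of Tspan1 moved the same way, at 1.02 and 0.95 in het and WT P4 against 5.29 and 4.93 in het and WT P5. Dmbt1, a secreted scavenger receptor that binds bacteria and mucins, read 1.39 in het P4 and 2.51 in WT P4, against 6.75 in het P5 and 7.22 in WT P5. The difference was -5.03 ± 0.75, with an adjusted p of 0.016 in limma. Plac8 read -1.75 in het P4 and -1.72 in WT P4, against 2.08 in het P5 and 2.44 in WT P5, which was below the reference RNA in P4 and above it in P5. Its difference was -3.996 ± 0.620, with an adjusted p of 0.018 in limma. These 3 of 10 genes compare with 7.40% of 24692 genes called lower in P4 at the same threshold, and the median difference was -2.20 over the 10 genes and 0.07 over all genes. The rule that chose the genes used the P5 arrays, and earlier results had already shown some of the members in this contrast. The comparison with all genes is therefore a description and gives no independent support.

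**Figure D1:**
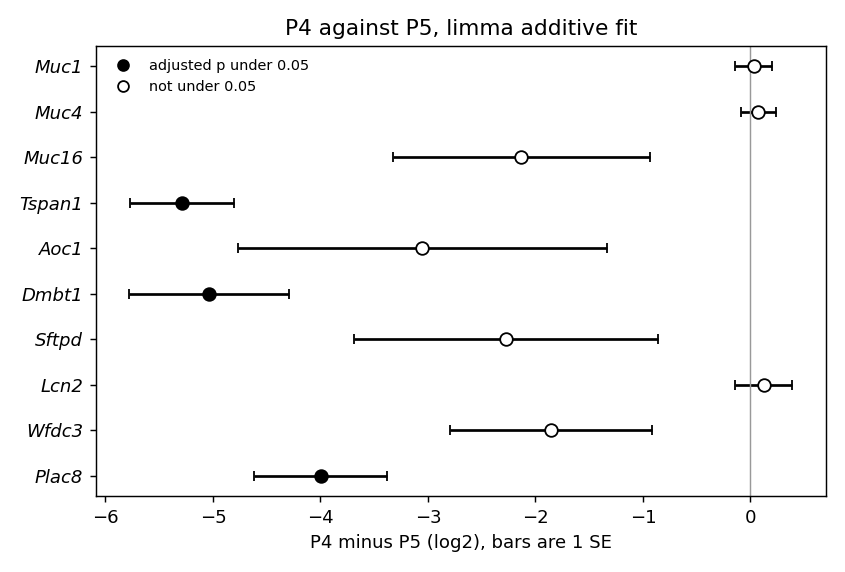
Difference between P4 and P5 on the log2 scale for each of the 10 genes, with 1 SE from the limma fit across all 6 arrays. Filled points have an adjusted p under 0.05: Tspan1 at -5.29, Dmbt1 at -5.03 and Plac8 at -3.996, while Muc1, Muc4 and Lcn2 lie at 0.12 or less.

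Aoc1, Sftpd, Muc16 and Wfdc3 had differences between P4 and P5 of -3.05, -2.28, -2.13 and -1.86, with adjusted p of 0.30, 0.35, 0.30 and 0.26 in limma. The fit takes its error from how much the genotype difference varies among the 3 populations, and for these genes it varied most through MEC. Several members were chosen for large or opposite genotype differences in P5 and MEC, which widens that error. The missing calls are therefore not read as a result. With the 4 sorted arrays alone, which leaves 1 residual degree of freedom, all 4 were called lower in P4, making 7 of 10 genes, while the number of genes called across the array became 7068, against 3686 with 6 arrays. Leaving out either P4 array left 0 genes called of all those tested, and leaving out WT P5 left 1 of the 10, Tspan1. Without het P5 the Plac8 call was lost, and those of Tspan1 and Dmbt1 remained. Calls across the array also fell in each of these runs. The Plac8 call was thus lost without any 1 of the 4 sorted arrays, with an adjusted p in limma of 0.126 without het P4, 0.202 without WT P4, 0.0502 without het P5 and 0.0507 without WT P5.

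Lcn2, Muc1 and Muc4 did not pass the test between P4 and P5. Lcn2, the siderophore-binding lipocalin that withholds iron from bacteria, read 3.75 in het P4 and 4.30 in WT P4, against 3.90 in het P5 and 3.89 in WT P5. The 4 values overlap, and the difference was 0.12 ± 0.26 with an adjusted p of 0.80 in limma. It turned negative with median centring, with local backgrounds as given and in the Cy5 channel alone. Muc1, the transmembrane mucin that coats the apical face of most glandular epithelia, read 0.88 in het P4 and 0.31 in WT P4, against 0.60 in het P5 and 0.52 in WT P5 on its brighter probe. Its dimmer probe, 138 bases away, told the populations apart: -0.26 in het P4 and -0.16 in WT P4, against 1.21 in het P5 and 1.18 in WT P5. Neither P4 array was well above background there, so Muc1 was at least 2.22-fold higher in P5 on that probe, with an adjusted p of 0.008 when every probe was fitted on its own in limma. The bound sets the mean P5 level against the mean, over the P4 arrays, of the higher of the dim probe's own level and the lowest level among probes well above background on that array.

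The probes of Muc4, a large transmembrane mucin that can bind the receptor ErbB2, differed from each other. The brightest probe lies 23.6 to 27.1 kb upstream of 4 others and read 1.23 in het P4 and 0.50 in WT P4, against 1.05 in het P5 and 0.54 in WT P5, so the populations overlapped. The probe farthest downstream read 0.16 in het P4 and 0.19 in WT P4, against 2.62 in het P5 and 3.06 in WT P5. Of the 2 P4 arrays, het P4 was well above background there and WT P4 was not, so the probe was at least 6.17-fold higher in P5 by the same bound, with an adjusted p of 0.003 in limma. Another downstream probe differed by -1.09 (adjusted p 0.032 in limma). One more, not well above background on either P4 array, was at least 2.09-fold higher in P5 (adjusted p 0.042 in limma). The fourth, at -0.32, had an adjusted p of 0.28 in limma. The sixth probe of Muc4, which has no position in the files, was well above background on 0 arrays. With the mean over probes in place of the brightest, 5 of 10 genes were called lower in P4, since Muc1 and Muc4 joined the 3 at -0.69 and -1.07. Across the array that setting called 3370 genes in either direction, against 3686 with the brightest probes.

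**Figure D2:**
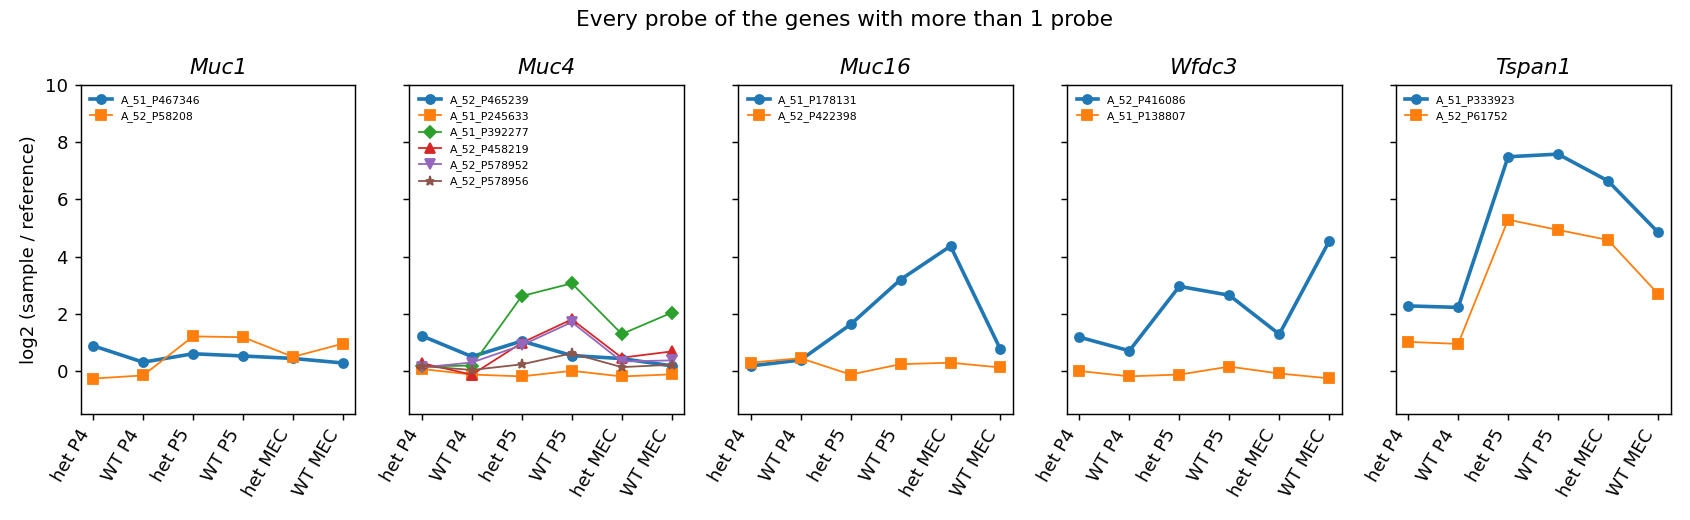
Log2 ratio of every probe of the 5 genes with more than 1 probe on the 6 arrays, with lines joining the values of a probe and the thick line marking the probe used for the gene. Both Tspan1 probes show the step between P4 and P5, the downstream Muc4 probe reaches 3.06 in WT P5 while the brightest stays between 0.18 and 1.23, and the dimmer probes of Muc16 and Wfdc3 stay between -0.26 and 0.45.

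In total epithelial cells, 7 of the 10 genes were at least 2-fold apart between genotypes, in opposite directions. Muc16, Aoc1, Dmbt1 and Tspan1 were at least 2-fold higher in het MEC than in WT MEC, where 1.18% of 24722 genes were, and Sftpd, Wfdc3 and Plac8 were at least 2-fold lower, where 1.05% were. The rule that chose the genes used these differences, so nothing is read from that comparison. The technical SD of such a difference, from 245 probes printed 10 times on each array, was 0.11 in MEC, 0.14 in P5 and 0.15 in P4. It covers spot to spot error on one array and not the spread between animals, which 1 array per group cannot give. The size of the MEC differences moved with the processing. Over the 11 alternative settings, Muc16 ran from 1.89 to 4.02, Dmbt1 from 1.39 to 3.39, Tspan1 from 1.22 to 2.91 and Wfdc3 from -3.53 to -1.54, and all 7 genes kept their direction and stayed past 2-fold.

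**Figure D3:**
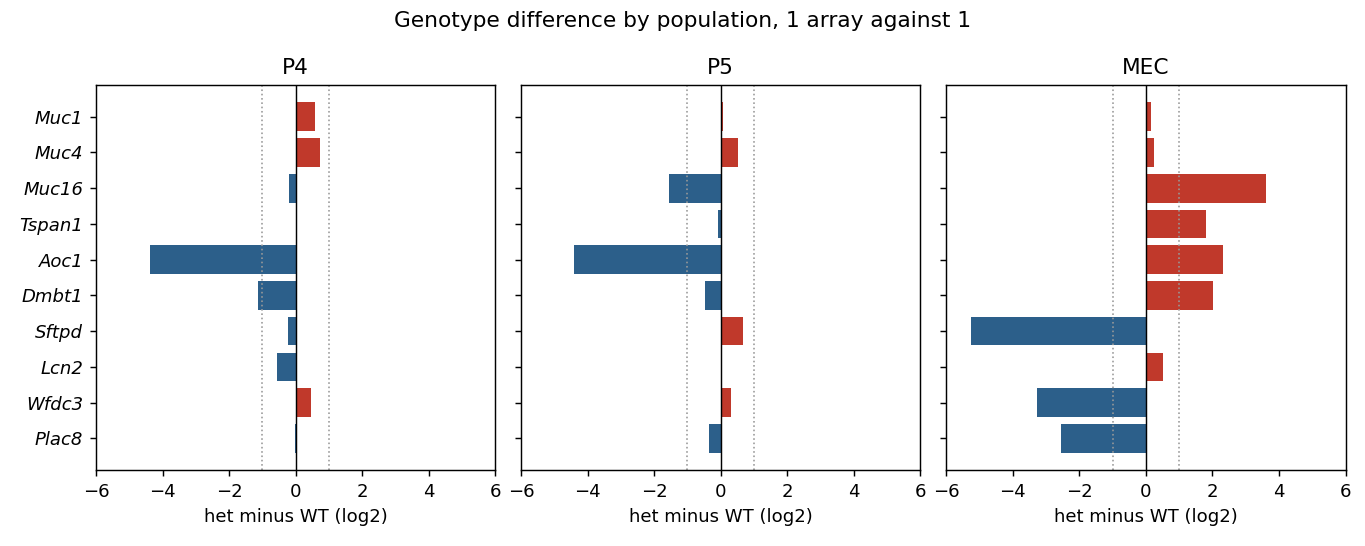
Het minus WT difference of the log2 ratio for the 10 genes in P4, P5 and MEC, each bar 1 array against 1; dotted lines mark 2-fold. In MEC the bars run from -5.25 for Sftpd to 3.61 for Muc16, and in P4 and P5 the Aoc1 bar, at -4.39 and -4.40, passes all others.

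Muc16, the transmembrane mucin whose shed part is the antigen CA125, read 0.18 in het P4 and 0.38 in WT P4, 1.63 in het P5 and 3.19 in WT P5, and 4.37 in het MEC and 0.75 in WT MEC. Its highest value was thus in het MEC and its values in P4 were close to the reference RNA. The het minus WT difference was -1.57 in P5 and 3.61 in MEC, 12.2-fold higher in het MEC. By this measure it ranked 3 from the top of 24722 genes. The rule that chose the genes used such differences, so the rank is a description. The other Muc16 probe, 63.9 kb away toward the gene's start, read between -0.13 and 0.45 on all 6 arrays and showed neither difference. The P5 difference was -1.15 in the Cy5 channel alone and -0.97 with the mean over probes, which is under 2-fold.

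Aoc1 encodes diamine oxidase, a secreted enzyme that breaks down histamine and putrescine. It read 0.42 in het P4 and 4.80 in WT P4, 3.46 in het P5 and 7.86 in WT P5, and 5.48 in het MEC and 3.17 in WT MEC. In both sorted populations the WT array was more than 4 units above the het array, and in MEC the het array was above. The differences were -4.39 in P4, -4.40 in P5 and 2.31 in MEC, which are 20.9-fold and 21.1-fold lower in het P4 and het P5 and 4.96-fold higher in het MEC. In P4 and in P5 alike, Aoc1 ranked 2 from the bottom among the genes tested. Across the array, 85 of 24692 genes were at least 2-fold apart in both P5 and MEC. Of these, 75 were in opposite directions, Aoc1 and Muc16 among them. The choice of genes used differences of this kind, so the P5 rank and these counts are descriptions. The sizes moved with the processing: the P4 difference was -2.10 with local backgrounds as given, and with the scanner software's log ratio the P5 difference was -2.63 and the MEC difference 1.41. In Cy5 alone the differences were -3.61 in P4 and -5.33 in P5.

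Dmbt1 and Tspan1 had a similar pattern over the 6 arrays (Pearson r of 0.99), but their genotype differences in P4 were unlike. In MEC, Dmbt1 read 6.38 in het mice against 4.35 in WT mice, and Tspan1 read 6.64 in het mice against 4.85 in WT mice, so het MEC came within 1 unit of the P5 values for both. Their differences in MEC were 2.03 and 1.79, and the dimmer Tspan1 probe gave 1.88. In P5 the same differences were -0.47 for Dmbt1 and -0.09 for Tspan1. In the Cy5 channel alone Dmbt1 in P5 was -1.23, past 2-fold, while its Cy3 signal was 212 in het P5 against 468 in WT P5. In P4, where 0.455% of 24815 genes were at least 2-fold lower in het mice, Dmbt1 differed by -1.12 and Tspan1 differed by 0.05. Dmbt1 in P4 became 0.08 with local backgrounds as given and -0.97 in the Cy5 channel alone. Tspan1 in P4 became 1.15 with local backgrounds as given, past 2-fold. Aoc1 and Dmbt1 were the 2 of 10 genes at least 2-fold lower in het P4. Aoc1 and Muc16 were the 2 of 10 in het P5, where 0.894% of 24833 genes were. The rule that chose the genes used the P5 differences, so nothing is read from that share.

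Sftpd, Wfdc3 and Plac8 had their highest value in WT MEC. Sftpd, the collectin surfactant protein D that binds sugars on microbes, read 0.30 in het P4 and 0.54 in WT P4, 3.03 in het P5 and 2.36 in WT P5, and 0.91 in het MEC and 6.16 in WT MEC. Its MEC difference was -5.25, or 38.2-fold lower in het MEC, the lowest of the 24722 genes. The choice of genes used MEC differences, so that rank is a description. The difference ran from -6.61 in Cy5 alone to -3.57 with the scanner software's log ratio. Wfdc3, named for its WAP four-disulfide core domains of the antiprotease type, read 1.18 in het P4 and 0.71 in WT P4, 2.96 in het P5 and 2.65 in WT P5, and 1.28 in het MEC and 4.54 in WT MEC. The MEC difference was -3.26, or 9.57-fold lower in het MEC. The dimmer Wfdc3 probe, 12.7 kb away, read between -0.26 and 0.15 and differed by 0.17 in MEC. Plac8 read 0.88 in het MEC and 3.44 in WT MEC, a difference of -2.56 or 5.89-fold lower, while in the sorted cells its genotype differences were -0.03 in P4 and -0.37 in P5. In P5 the Sftpd difference was 0.67 and the Wfdc3 difference 0.31. With local backgrounds as given Sftpd in P5 was 1.19, which made 3 of 10 genes past 2-fold there. For these 3 genes the WT MEC value also lay above both sorted WT populations.

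**Figure D4:**
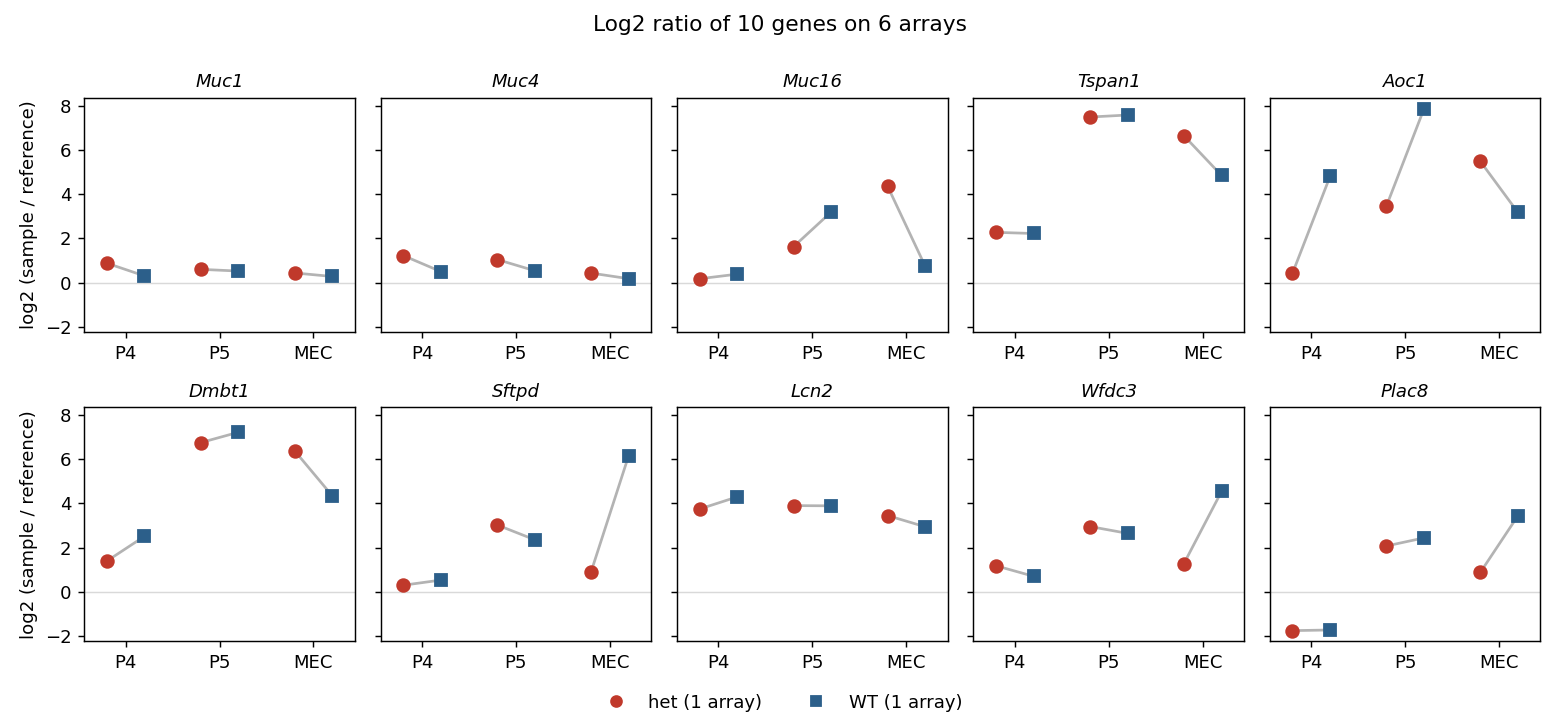
Log2 ratio of the sample over the reference RNA for the 10 genes on the 6 arrays, with circles for het, squares for WT and a line joining the 2 arrays of a population. Aoc1 runs from 0.42 in het P4 to 7.86 in WT P5, Sftpd and Wfdc3 peak in WT MEC at 6.16 and 4.54, and Muc16 peaks in het MEC at 4.37.

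Lcn2, Muc1 and Muc4 were less than 2-fold apart between genotypes in every population on their brightest probes. Lcn2 differed by -0.55 in P4, 0.01 in P5 and 0.51 in MEC. Muc1 differed by 0.57, 0.08 and 0.16, and Muc4 by 0.72, 0.51 and 0.25. The downstream Muc4 probe ran the other way, at -0.03 in P4, -0.44 in P5 and -0.75 in MEC.

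Against MEC, 3 of 10 genes were lower in P4, where 8.28% of 24692 genes were: Plac8 at -3.900 (adjusted p 0.020 in limma), Tspan1 at -3.50 (0.015) and Dmbt1 at -3.41 (0.039). The rule that chose the genes used the MEC arrays, so the comparison with all genes gives no independent support. The Dmbt1 call was lost with local backgrounds as given (-3.68, adjusted p 0.082 in limma) and in Cy5 alone (-4.21, adjusted p 0.052), which left 2 of 10. The calls between P4 and MEC were also lost when either P4 array was left out. With 1 MEC array left out, the differences ran in both directions. Without het MEC, P4 minus MEC was 1.63 for Aoc1 and 1.21 for Lcn2, but -5.855 for Sftpd and -3.79 for Wfdc3. Without WT MEC it was 0.74 for Muc4, but -4.53 for Muc16 and -5.07 for Aoc1. Between P5 and MEC 0 of 10 were called in limma, while 6.07% of genes were called in either direction. Tspan1 came nearest, at 1.79 ± 0.48 with an adjusted p of 0.099. With a normexp offset of 0, 1 of the 10 was called, and 1924 of all genes were. Several members were chosen for opposite or large genotype differences in P5 and MEC, and such differences widen the error of this fit. The count of 0 is therefore not read as a result. For Muc16, Aoc1, Sftpd, Plac8 and Wfdc3 the sign of the P5 minus MEC difference depended on which MEC array was left out. For Aoc1 the P5 minus MEC difference was 4.68 without het MEC and -2.02 without WT MEC. For Sftpd it was -3.58 without het MEC and 1.89 without WT MEC.

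Markers of other cell types also differed between the MEC arrays, 1 array against 1. Among all genes tested, 1.18% were at least 2-fold higher in het MEC and 1.05% at least 2-fold lower. Fibroblast markers summed to a Cy5 level of 207059 in het MEC against 386770 in WT MEC, with 4 of 10 markers at least 2-fold lower in het MEC and a median of -0.95. Sorted P4 and P5 samples summed to between 14804 and 59005. General luminal markers summed to 975573 in het MEC against 537342 in WT MEC, 3 of 10 at least 2-fold higher in het MEC with a median of 0.36, and hormone-sensing markers to 183698 against 104684 (3 higher, 1 lower, median 0.54). Luminal progenitor markers summed to 219930 in het MEC against 276426 in WT MEC with a median of -0.21, and basal markers to 215898 against 280388 with a median of -0.23. Milk and alveolar markers summed to 4675 in het MEC against 10463 in WT MEC, with 2 of 10 at least 2-fold lower. Leukocyte markers summed to 9581 against 11611 (2 of 15 lower), endothelial markers to 50891 against 62203 (0 of 10 past 2-fold) and adipocyte markers to 204587 against 204575 (0 of 9). Neutrophil markers summed to 33777 in het MEC against 14686 in WT MEC, with 0 of 10 past 2-fold in the log2 ratio. Of these sums Ltf, a gene that glandular epithelium also uses, made up 32658 in het MEC and 13309 in WT MEC. The sums are of Cy5 levels, while the 2-fold counts and medians are of log2 ratios, so they can differ, as for Ltf. Marker sums differed between genotypes in the sorted cells as well. In P5, hormone-sensing markers summed to 145294 in het mice against 256120 in WT mice (median -0.31). Fibroblast markers in P5 summed to 25342 against 14804 (median 0.72), and basal markers to 34417 against 28265 (median 0.67). In P4, leukocyte markers summed to 17772 in het mice against 8458 in WT mice (median 0.51). The part of all these shifts in the results for the 10 genes was not tested. Fewer cells of a type and less RNA per cell cannot be told apart in such samples.

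The reference channel carried the same RNA on every array, yet on the brightest spots it moved with the sample channel. The Cy3 signal of Aoc1 was 67.1 in het P5 against 298 in WT P5, beside Cy5 signals of 433 and 29886. For Sftpd, Cy3 was 47.5 in het MEC against 201 in WT MEC, beside Cy5 signals of 146 and 28636. Dmbt1 had Cy3 signals of 259 in het MEC and 99.7 in WT MEC, beside Cy5 signals of 32136 and 3980. Among other probes with a Cy5 signal of 5000 or more and an 8-fold or larger Cy5 difference between the MEC arrays, 5 of 6 were also brighter in Cy3 on the brighter array. With the Cy5 channel alone the MEC differences were -6.61 for Sftpd, 4.01 for Muc16, 3.39 for Dmbt1, 3.02 for Aoc1, 2.74 for Tspan1, -3.53 for Wfdc3 and -2.55 for Plac8, all in the same direction as the ratios. For Plac8 that was no larger than the ratio of -2.56, and Cy5 alone gave smaller differences than the ratio for Muc16 in P5 and for Aoc1 and Dmbt1 in P4.

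**Figure D5:**
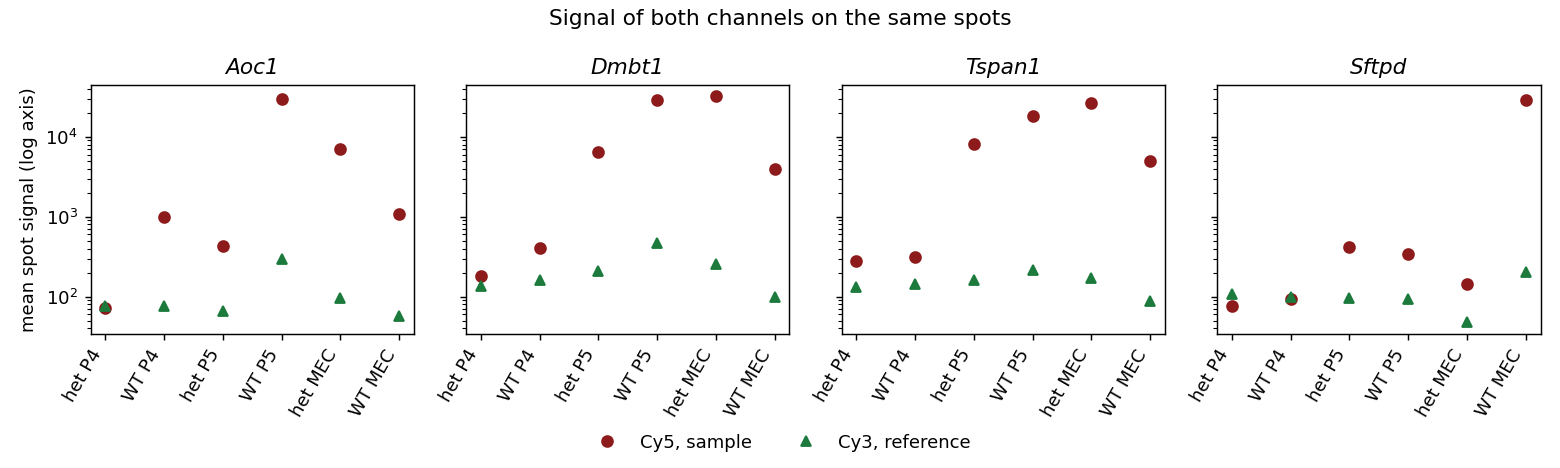
Mean spot signal in both channels, on a log axis, for 4 genes on the 6 arrays, with circles for the Cy5 sample channel and triangles for the Cy3 reference. The Cy3 signal of Aoc1 stands at 298 in WT P5 and at 95.8 or less on the other 5 arrays.

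Relatives and pathway partners of the members were taken from lists of other genes, against a background of 7.40% of genes lower and 7.53% higher in P4 than in P5 and a median of 0.07. The median P4 minus P5 difference was 0.07 in the other mucins, -0.47 in the O-glycosylation enzymes, -0.12 in the tetraspanins, 0.01 in the WAP-domain genes and 0.12 in the collectin list. It was -0.09 in the antimicrobial list, 0.08 in the polyamine list, -0.27 in the secretory regulators and -0.24 in the NF-kB list. Of 8 other mucins tested, 2 were called lower in P4 than in P5 in limma, Muc13 at -2.83 and Muc15 at -2.11, and none higher. In het MEC both were also more than 2-fold lower than in WT MEC, Muc13 by -2.11 and Muc15 by -1.03, while Muc16 was higher. In P5, Muc13 was -1.79 and Muc6 1.72 in het minus WT. Of 17 enzymes of mucin O-glycosylation, which attach and extend the sugars that mucins carry, 5 were lower in P4, among them Galnt15 at -3.12 and Gcnt1 at -2.72, and 3 were higher. Gcnt1 was also -1.82 in het minus WT in P5, against Galnt10 at 0.80, and in MEC Galnt14 read -1.03 and Galnt4 -0.65.

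Of 21 other tetraspanins 5 were lower in P4, with Tspan13 at -3.29 and Tspan33 at -3.21, and 3 were higher. Tspan13 went with Aoc1 and Muc16 in direction, at -1.29 in P5 and 1.62 in MEC in het minus WT. The other genes the rule names there are Tspan2 (0.97 in P5) and Tspan9 (1.28 in MEC). Of 11 other WAP-domain antiproteases Slpi alone was called, higher in P4 by 4.85, and Wfdc18, at -1.001, had an adjusted p of 0.059 in limma. In het minus WT Slpi was -1.201 and Wfdc12 -1.56 in MEC, both in the direction of Wfdc3, and Wfdc5 and Wap were 0.92 and 0.83 in P5. Of 12 other collectins, surfactant proteins and scavenger receptor cysteine-rich proteins 1 was called, Ssc5d, higher in P4 by 1.89. Colec12 (1.10 in P4 minus P5, adjusted p 0.22 in limma) was 1.02 in P5 and -1.11 in MEC in het minus WT, beside Mbl1 at 0.58 in P5 and Cd5l at -1.06 in MEC.

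Of 21 other secreted antimicrobial proteins 6 were lower in P4, led by Hp, which binds free haemoglobin, at -4.71, and Cd14, the co-receptor for lipopolysaccharide, at -3.64, and 1 was higher. In het MEC 4 of the 21 were at least 2-fold lower, with the acute phase protein Saa2 at -2.77 and Defb1 at -1.99. In P5 C3 and Lpo were 2.26 and 1.64 in het minus WT. Of 13 genes of polyamine and diamine metabolism, the substrates of diamine oxidase, 4 were higher in P4, among them Aoc3 at 4.44 and Odc1, which makes putrescine, at 2.58, and 1 was lower. None of the 13 was 2-fold apart between genotypes in any population: Aoc2 and Aoc3 were -0.78 and 0.78 in P5, and Sat1 and Odc1 -0.94 and -0.68 in MEC.

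Of 17 regulators of secretory epithelium and trefoil genes 5 were lower in P4, led by Clca1 at -5.02 and Foxa1 at -3.45, and none higher. Clca1 was -1.02 in P5 and -1.80 in MEC in het minus WT, Elf3 -0.60 in P5 and Spdef 0.91 in MEC. Of 17 genes of the NF-kB, IL-17 and C/EBP responses 3 were higher in P4, including Icam1 at 3.03 and Cebpb at 2.05, and 2 were lower. In het minus WT, Cxcl2 was -1.95 and Il6 1.79 in P5, and Cxcl2 and Cxcl5 were -0.86 and -0.73 in MEC.

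The genes most like each member over the 6 arrays were sought among 2230 other genes that were well above background on all arrays and spanned at least 2 log2 units. Tspan1 was followed most closely by Cmtm8 and Dnajc12 (Pearson r of 0.998 each), and Dmbt1 by Cd200 (0.998) and Krt7 (0.995). Plac8 was most like Atp1b1 (0.989), and Sftpd and Wfdc3 had the same nearest gene, Tmprss6 (0.979 and 0.972), with Ubd next for both. Muc16 was most like Slc25a33 (0.975) and Sprr1a (0.973), Muc4 like Wdtc1 (0.999), Lcn2 like an unnamed transcript (0.963), Muc1 like Ssbp4 (0.954) and Aoc1 like Tapt1 (0.923). Among the members themselves, Dmbt1 and Tspan1 correlated at 0.99 and Sftpd and Wfdc3 at 0.98. The 6 points share the arrays and the reference RNA, and the members were chosen on 4 of them, so these are descriptions. They hold for the brightest probe of each member, and other probes of Muc1, Muc4, Muc16 and Wfdc3 ran differently. The brightest probes of Muc1 and Muc4 spanned only 0.60 and 1.05 log2 units over the arrays.

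Upstream sequence was available from RefSeq (GRCm38.p6) for 8 of the 10 genes, with 2 start sites each for Aoc1 and Plac8. In the 250 bases before the start, the core pattern of the p53 family, which includes p63, was searched. It is 2 copies of CNNG with 6 bases of any kind between them, and it reads the same on both strands. It was present in 3 of the 10 windows, and in 63.5% of the 32851 windows of all genes. Windows of Aoc1, Plac8 and Muc1 held it, while the other window of Aoc1 and of Plac8 held none. The windows of Muc16, Tspan1 and Wfdc3, which were also at least 2-fold apart in MEC, held none either. A link between the pattern and the genotype differences was not tested. The matching windows of Aoc1 and Plac8 are shown, with the pattern in capitals.
Aoc1, chr6:48895005-48895254 on the plus strand: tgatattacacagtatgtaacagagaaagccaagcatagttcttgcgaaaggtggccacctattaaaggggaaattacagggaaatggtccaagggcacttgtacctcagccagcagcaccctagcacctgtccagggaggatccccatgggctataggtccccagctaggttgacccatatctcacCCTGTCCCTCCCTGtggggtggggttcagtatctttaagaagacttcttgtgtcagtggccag
Plac8, chr5:100563097-100563346 on the minus strand: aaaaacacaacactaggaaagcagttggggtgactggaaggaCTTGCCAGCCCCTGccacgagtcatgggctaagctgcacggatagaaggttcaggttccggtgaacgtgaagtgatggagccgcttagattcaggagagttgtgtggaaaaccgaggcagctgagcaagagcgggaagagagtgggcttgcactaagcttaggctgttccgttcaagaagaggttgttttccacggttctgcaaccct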

How the data were processed

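Total RNA of 6 samples was hybridised on 2-colour Agilent arrays, the sample in Cy5 and the reference in Cy3, with no dye swap. Per the file headers, the authors scanned with Agilent Feature Extraction 9.5.3.1, and the deposited scanner files hold mean and background intensity per spot and a log10 ratio of Cy5 over Cy3. The deposited series table holds log2 ratios that followed the scanner's ratios with r of 0.988 or more and medians of -0.04 to 0.10, with no centring stated.

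Here, signals were corrected with normexp (offset 50) and normalized by loess within each array in limma 3.58.1 (R 4.3.3). Up to 14 local backgrounds per channel lay more than 10 median absolute deviations from the rest, and these were replaced by the array's median, since a single one reaching 30168 widened the background fit. That choice was made after seeing the files. Outlier spots (125 to 310 per array) were left out. Genes with a probe well above background on at least 2 of 6 arrays were tested (24839, of which 24692 had values on all arrays), each represented by the probe brightest in Cy5. Levels of Cy5 are quantile normalized between arrays.

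The limma fit held population and genotype over 6 arrays (2 residual degrees of freedom), with Benjamini-Hochberg adjustment over all genes and a threshold of 0.05. Genotypes within a population are 1 array against 1, without a test. The spread in the fit includes population by genotype differences. No group has replicates. P-values measure only the spread between these samples.

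Members, lists and tests were chosen with earlier results of these data known, so patterns already seen have no independent support. Named list genes are the 2 with the largest difference between P4 and P5 and the 2 with the largest het minus WT difference in P5 and in MEC for each family list, and the 1 with the largest P4 minus P5 difference for each marker list. The most like genes were ranked by Pearson correlation. Alternatives covered background correction, normalization, channel, filter, probes and arrays.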

Additional observations from a re-analysis of the deposited data

Results flagged for a closer look

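The het minus WT difference of 3 genes took opposite signs in different populations, each by at least 2-fold. Muc16 was -1.568 in P5 and 3.614 in MEC. Aoc1 was -4.400 in P5 and -4.385 in P4, and 2.311 in MEC. Dmbt1 was -1.117 in P4 and 2.033 in MEC. The difference between populations was not tested, since each value is 1 array against 1, and genes of this kind were sought when the members were chosen.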

How the results depend on the processing

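Precision is limited by 1 array per group and 1 spot per probe; signal over background was 3.13 to 4.88 at the median, and dim probes carry little. The labels give no replicate numbers, and no paired analysis was possible because each group has 1 sample. Use of the local backgrounds as given was added as an alternative after seeing the data; the others were planned. The counts of the 10 genes called were 3, 0 and 3 for P4 against P5, P5 against MEC and P4 against MEC, and those of all genes 3686, 1498 and 4378.

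With local backgrounds as given the counts of all genes were 973 for P5 against MEC and 1692 for P4 against MEC; P4 minus P5 was -0.064 for Muc1, -0.082 for Muc4 and -0.31 for Lcn2, P5 minus MEC 0.047 for Wfdc3, and Dmbt1 in P4 0.084 in het minus WT. The scanner's log ratio and the deposited table each gave 0.028 for Wfdc3 in P5 minus MEC. Median centring called 14293 genes for P5 against MEC and 16412 for P4 against MEC. It turned P4 minus P5 to -0.16 (Muc1), -0.10 (Muc4) and -0.21 (Lcn2), P5 minus MEC to -0.22 (Muc1), -0.10 (Muc4), -1.217 (Plac8) and -0.37 (Lcn2), and P4 minus MEC to -0.38 (Muc1), -0.20 (Muc4) and -0.59 (Lcn2), and left 1 gene 2-fold apart in P4 in place of 2. In Cy5 alone 1 was 2-fold apart in P4, and P4 minus P5 was -0.092 for Lcn2, P5 minus MEC -0.044 for Plac8 and P4 minus MEC -0.027 for Lcn2. The mean over probes called 5 of 10 and 3370 of all genes for P4 against P5, with Muc1 at -0.69 and Muc4 at -1.07. It gave 0.038 for Wfdc3 in P5 minus MEC and -0.35 (Muc1) and -0.33 (Muc4) in P4 minus MEC, and left 1 gene 2-fold apart in P5. A normexp offset of 0 called 1 of 10 and 1924 of all genes for P5 against MEC. The 4 sorted arrays alone called 7068 genes and 7 of 10 for P4 against P5. The causes were not tested.

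Leaving out 1 array at a time gave ranges. For P4 against P5, 0 to 7064 genes and 0 to 7 of 10 were called, for P5 against MEC 0 to 4097 and 0 to 8, and for P4 against MEC 0 to 6847 and 0 to 7. P4 minus P5 ran from -0.20 to 0.26 for Muc1, -0.10 to 0.24 for Muc4 and -0.28 to 0.53 for Lcn2. P5 minus MEC ran from -2.40 to 2.10 for Muc16, -2.02 to 4.68 for Aoc1, -3.58 to 1.89 for Sftpd, -1.08 to 1.28 for Plac8 and -1.93 to 1.71 for Wfdc3, and P4 minus MEC from -5.07 to 1.63 for Aoc1. Over all alternatives, member differences between populations kept direction and side of the threshold in 465 of 550 comparisons, kept direction but passed the threshold only in the alternative in 29 or lost it in 17, and changed sign in 39, of which 8 passed it only in the alternative. In every alternative run, Tspan1, Dmbt1 and Plac8 were lower in P4 than in P5, and the 7 genes 2-fold apart in MEC kept their direction and stayed past 2-fold.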
